A study of Mus musculus with 12 samples.

Results

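The 34 genes described here make, sense, move or clear cholesterol. They were taken by symbol from a list of sterol genes, and 34 of 34 were found among the 55487 genes counted in each library. They comprise 19 synthesis enzymes, 4 sterol sensors and 11 genes of transport and clearance. Of the enzymes, 8 belong to the mevalonate arm, which builds isoprenoids from acetyl-CoA, and 11 to the arm that turns farnesyl diphosphate into squalene and then into cholesterol.

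RNA was counted in the striatum of 12 mice, 3 in each of 4 groups. The cGAS-KO; HD mice, called double mutants here, lacked cGAS and had the Q175DN allele, which is zQ175 with its neo cassette deleted. The cGAS-KO mice lacked cGAS, the enzyme that senses DNA in the cytosol and signals through STING, and did not carry the knock-in allele. HD mice were heterozygous for the knock-in allele, in which mouse Htt holds an expanded CAG repeat as a model of Huntington's disease, and kept cGAS. WT mice were C57BL/6J controls. The series asked whether loss of cGAS alters disease in the knock-in mice. The knock-in allele is read from the Htt locus itself and is not limited to a cell type. The labels do not state the age or sex of the mice, the strain background of the mutants or the form of the cGAS deletion.

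The adult brain makes its own cholesterol, because the sterol hardly crosses the blood-brain barrier. Oligodendrocytes make it for myelin and astrocytes export it on lipoprotein particles, while neurons take much of it up. When sterol is low in the endoplasmic reticulum, SCAP carries the transcription factor SREBP2 (Srebf2) to the Golgi for cleavage, and SREBP2 then raises the synthesis enzymes, whereas INSIG proteins hold SCAP back. Excess sterol leaves neurons after CYP46A1 hydroxylates it, and oxysterols activate the LXR receptors, which raise efflux pumps such as ABCA1. The striatum is made up mostly of medium spiny neurons, the cells most affected in Huntington's disease, and lower sterol synthesis in that disease is a long-standing topic of the field.

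Library totals lay between 59195327 and 72765623 counts. Values below are CPM, counts scaled to a common library size after TMM normalisation. Differences are log2 changes ± standard error (SE) from edgeR's quasi-likelihood fit over 12 libraries, and a gene was called when its Benjamini-Hochberg adjusted p over 21309 tested genes was under 0.05. The filter on low counts passed 34 of the 34 genes. Htt had 126 to 142 CPM in double mutants, against 155 to 179 CPM in cGAS-KO mice, and 131 to 144 CPM in HD mice, against 169 to 179 CPM in WT mice. Cgas had 0.572 to 0.882 CPM in cGAS-KO mice, against 1.32 to 1.56 CPM in WT mice, but its ranges overlapped between double mutants (0.798 to 1.15 CPM) and HD mice (1.07 to 1.26 CPM), and it was called in none of the comparisons. The labels do not say which stretch of Cgas was deleted, so they are a weak check of the labels.

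Some libraries stood apart from the rest of their group. Mitochondrial genes took 11.5% of counts in cGAS-KO replicate 3, while 11 libraries had between 5.3% and 9.03%. A chi-square comparison of counts put that library at 145 and 181 per gene from replicates 1 and 2, which were 17 apart. WT replicate 1 lay at 47.9 and 77.4 from WT replicates 2 and 3, which were 8.83 apart. Replicates were 18 to 47.2 apart in HD mice and 19.7 to 52.5 apart in double mutants, from which no library was set aside. Results are also given without cGAS-KO replicate 3 and WT replicate 1. Among the 34 sterol genes, WT replicate 1 was the highest of 12 in 2 and the lowest in 2. Those shares were 5.88% each, against 9.75% and 9.04% of all genes tested. The cGAS-KO replicate 3 library was the highest of 12 in 11 of 19 synthesis enzymes (57.9%, against 23.1% of all genes tested) and the lowest in 5 of 11 transport and clearance genes (45.5%, against 22.2%). Double-mutant replicate 1, with 9.03% mitochondrial counts, was the lowest in 6 of 19 enzymes (31.6%, against 8.35%). It was also the lowest in 3 of 4 sensors (75%), namely Srebf2, Scap and Insig1.

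RNA of cell type markers also differed with the knock-in allele. The 10 medium spiny neuron markers summed to 1631 to 1681 CPM in double mutants, against 3709 to 4598 CPM in cGAS-KO mice, and to 941 to 1931 CPM in HD mice, against 2931 to 4204 CPM in WT mice. With the knock-in effect averaged, 10 of 10 were lower (median log2 change -1.34), from Tac1 (-0.62) to Adora2a (-1.99), and these markers of striatum were present in every library. Of all genes tested, the averaged effect called 7.63% lower and 5.59% higher, and 27.5% had an unadjusted edgeR p under 0.05. The 10 oligodendrocyte and myelin markers summed to 8469 to 8941 CPM in double mutants, against 8547 to 10710 CPM in cGAS-KO mice, and to 8941 to 9710 CPM in HD mice, against 9714 to 11909 CPM in WT mice. Of these 10, 5 were called lower, among them Mobp (-0.42) and Cldn11 (-0.37), and 0 higher, while 4 had positive changes that were not called, namely Cnp (0.38), Mag (0.32), Mog (0.29) and Opalin (0.23). The 8 astrocyte markers summed to 3307 to 3539 CPM in double mutants, against 3853 to 4520 CPM in cGAS-KO mice, and to 3198 to 3242 CPM in HD mice, against 4065 to 4304 CPM in WT mice. Among them Slc1a2 was lower (-0.61) and Aqp4 higher (0.36), and the median change was -0.06. The sums lean on Slc1a2, at 1509 CPM in double mutants and 2244 CPM in cGAS-KO mice, and 1336 CPM in HD and 2092 CPM in WT mice. The mean log2 CPM of the 8 was 7.85 in double mutants and 7.86 in cGAS-KO mice, and 7.84 in HD and 7.94 in WT mice. Microglial markers summed to 443 to 574 CPM over the 12 libraries, and 1 of 8, Tmem119, was higher. Cortical neuron markers, which tell of neighbouring cortex in the dissection, summed to 110 to 241 CPM in double mutants, against 113 to 945 CPM in cGAS-KO mice, and to 56.7 to 105 CPM in HD mice, against 71.9 to 616 CPM in WT mice. Their averaged changes were negative in 5 of 5 (median -1.86, between -2.49 and -1.16), with 0 of 5 called and 4 at an unadjusted edgeR p under 0.05. The highest library was cGAS-KO replicate 3 (945 CPM). In WT mice these markers summed to 71.9 CPM in replicate 1, 515 CPM in replicate 2 and 616 CPM in replicate 3. Endothelial and mural markers had negative changes in 6 of 6 (median -0.32, 1 called), and oligodendrocyte precursor markers were called higher in 2 of 5 (median 0.23). Red blood cell markers were negative in 4 of 4 (median -0.31, 1 called) and fibroblast markers positive in 4 of 4 (median 0.25, 0 called). Choroid plexus markers, from tissue that borders the striatum, spread from 70.6 to 2012 CPM over the 12 libraries with 0 of 5 called, and in WT mice they summed to 1900 CPM in replicate 1, 142 CPM in replicate 2 and 70.6 CPM in replicate 3. None of the 65 marker genes used was at 0 in all libraries. In bulk tissue, fewer cells of a type and less RNA per cell cannot be told apart, and the part of these shifts in the sterol results was not tested.

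Per unit of transcript length, the sterol genes spanned a wide range of levels. Hmgcs1 (183 TPM on average over 12 libraries), Cyp46a1 (158 TPM) and Srebf2 (109 TPM) were the highest of the 34, followed by Lrp1 (95.5 TPM) and Insig1 (81.6 TPM). In WT mice Hmgcs1 (198 ± 17 TPM) and Cyp46a1 (197 ± 14.1 TPM, SD, n = 3 each) differed by less than their spread. The lowest were Scarb1 (11.1 TPM), Tm7sf2 (9.86 TPM), Nr1h3 (4.13 TPM) and Fdps (0.719 TPM). Fdps, farnesyl diphosphate synthase, shares its strand and position with the annotated gene Gm43738, so its low count is uncertain. Tm7sf2 likewise overlaps Vps51 on the same strand. Srebf2, Scarb1, Abcg1 and Nr1h3 overlap genes on their own strand that are not annotated as protein-coding. Fdft1, Cyp51, Ggps1, Npc1 and Mvd overlap protein-coding genes on the opposite strand. Hmgcs1, Idi1, Lss, Scap, Insig2, Soat1, Lrp1 and Nr1h3 overlap other annotated genes on the opposite strand. The labels do not say whether reads were counted by strand.

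The first question is what the knock-in allele did to these genes, and averaging its effects in mice with cGAS and in mice that lack it gives the most precise answer (6 libraries with the allele, 6 without). The clearance gene Cyp46a1, the uptake receptor Scarb1, a group of synthesis enzymes and their regulator were lower, and a pair of export genes was higher. The neuronal clearance enzyme Cyp46a1 fell by 0.66 ± 0.05 on the log2 scale, 6 of 19 synthesis enzymes fell by 0.20 to 0.38, and their regulator Srebf2 fell by 0.22. Npc1, which exports cholesterol from lysosomes, rose by 0.32 ± 0.05, and the efflux pump Abca1 by 0.36 ± 0.07. In all, 9 of the 34 genes were lower and 2 higher, 26.5% and 5.88%, against 7.63% and 5.59% of all genes tested (13.2% in either direction). The plot of averaged knock-in effects gives each of the 34 with its interval.

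**Figure D1:**
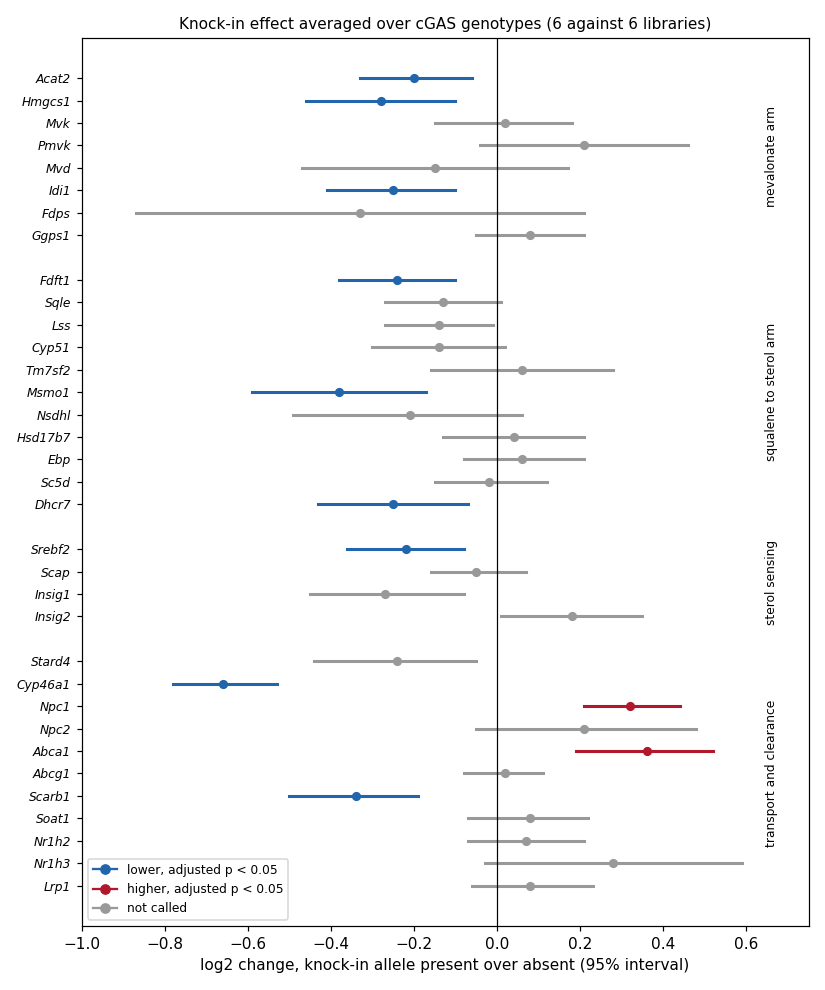
Log2 change between libraries with and without the knock-in allele, averaged over cGAS genotypes (x axis; points, with 95% intervals from the edgeR fit as bars), for each of the 34 genes (y axis) by class. Blue points were called lower, red points higher and grey points were not called; Cyp46a1 lies farthest from 0 at -0.66, and 6 of 19 synthesis enzymes are blue with 0 red.

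Among the mevalonate arm's 8 enzymes, 3 fell with the allele averaged over cGAS genotypes and 0 rose (37.5% lower), and their median log2 change was -0.17, against 0.01 over all genes tested. Hmgcs1, which joins acetyl-CoA and acetoacetyl-CoA, had 170, 203 and 224 CPM in double mutants, against 240, 226 and 284 CPM in cGAS-KO mice, and 200, 202 and 214 CPM in HD mice, against 217, 249 and 258 CPM in WT mice. Its 3 HD libraries lay below the WT libraries and its 3 double-mutant libraries below the cGAS-KO libraries, as for 13.1% and 10.7% of all genes tested, and the averaged change was -0.28 ± 0.08 (edgeR adjusted p = 0.0336). Acat2, the cytosolic thiolase that makes acetoacetyl-CoA, had 29.2, 31.1 and 33.7 CPM in double mutants, against 37.2, 35.7 and 38.8 CPM in cGAS-KO mice, and 28.9, 33.2 and 33.6 CPM in HD mice, against 33.6, 34.6 and 37.4 CPM in WT mice. Its HD libraries lay below its WT libraries, at the nearest by less than the rounding of these values, and the averaged change was -0.20 ± 0.06 (adjusted p = 0.0461). Idi1, the isomerase of isopentenyl diphosphate, had 13.7, 14 and 15.5 CPM in double mutants, against 18.6, 16.6 and 19.8 CPM in cGAS-KO mice, and 14.4, 14.9 and 13.7 CPM in HD mice, against 14.9, 16.4 and 16.9 CPM in WT mice. The double-mutant libraries lay below the cGAS-KO libraries and the HD libraries below the WT libraries, in the second pair by less than the rounding at the nearest, and the averaged change was -0.25 ± 0.07 (adjusted p = 0.025).

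The other 5 enzymes of the mevalonate arm were not called. Pmvk, phosphomevalonate kinase, had an averaged change of 0.21 ± 0.11 and Ggps1, which makes the prenyl donor geranylgeranyl diphosphate, 0.08 ± 0.06. Mvk, mevalonate kinase, stood at 0.02 ± 0.07 and Mvd, the decarboxylase, at -0.15 ± 0.14. Fdps, at 0.706 ± 0.308 CPM with the allele and 0.882 ± 0.105 CPM without it (SD, n = 6 each), had the widest interval of the 34.

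Of the 11 enzymes from squalene synthase to cholesterol, 3 fell and 0 rose (27.3% lower), with a median change of -0.14. Msmo1 is an oxidase that takes part in removing methyl groups from the sterol ring. It showed the largest averaged fall of any of the 19 enzymes, -0.38 ± 0.09 (edgeR adjusted p = 0.0157). It had 60.4, 62.7 and 72.5 CPM in double mutants, against 79.9, 73.8 and 110 CPM in cGAS-KO mice, and 63.2, 63.6 and 59.5 CPM in HD mice, against 72, 77.2 and 83.4 CPM in WT mice. Each group with the allele lay below its own control group, and the 110 CPM of cGAS-KO replicate 3 was far above the other 11 libraries; without that library and WT replicate 1 the averaged change was -0.31 ± 0.06 (adjusted p = 0.00125). Fdft1, squalene synthase, had 67.3, 68 and 75.4 CPM in double mutants, against 83.6, 79 and 93.7 CPM in cGAS-KO mice, and 73.5, 68.5 and 65.7 CPM in HD mice, against 72.3, 81.5 and 85.2 CPM in WT mice. Only the WT replicate 1 library came down to the level of the HD libraries, and the averaged change was -0.24 ± 0.06 (adjusted p = 0.0199). Dhcr7, a reductase of the last steps, had 26.2, 27.1 and 27.7 CPM in double mutants, against 29.3, 29.3 and 40.6 CPM in cGAS-KO mice, and 25.5, 26.3 and 24.9 CPM in HD mice, against 29.3, 29 and 30.5 CPM in WT mice. The 6 libraries with the allele lay below the 6 without it, as they did for 4.11% of all genes tested, while the change of -0.25 ± 0.08 passed only narrowly (adjusted p = 0.0497).

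**Figure D2:**
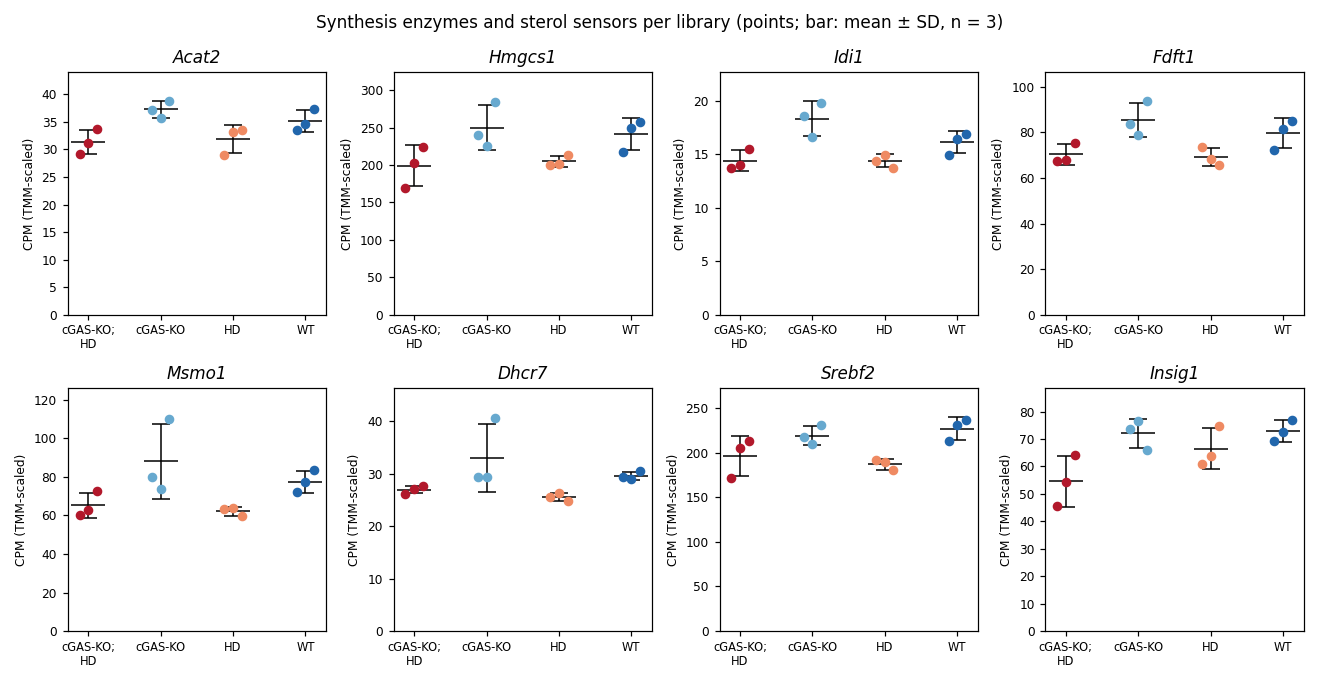
TMM-scaled CPM (y axis, from 0) of 6 called synthesis enzymes and of the sensors Srebf2 and Insig1 in each library (points) of the 4 groups (x axis), with the group mean ± SD as bars (n = 3). The cGAS-KO group holds the highest library of Msmo1 (110 CPM) and Dhcr7 (40.6 CPM), both from replicate 3.

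The 8 enzymes of that arm that were not called had averaged changes between -0.21 and 0.06, 3 of them positive. Sqle, the epoxidase of squalene, changed by -0.13 ± 0.06, Lss, which closes the sterol rings, by -0.14 ± 0.06, and Cyp51, the demethylase of lanosterol, by -0.14 ± 0.07. Nsdhl, which works in the same demethylation complex as Msmo1, stood at -0.21 ± 0.12, and their partner Hsd17b7 at 0.04 ± 0.07. Sc5d stood at -0.02, Ebp at 0.06 and Tm7sf2 at 0.06. Over the 19 enzymes of both arms 13 averaged changes were negative and 6 positive, beside 47.9% negative among all genes tested.

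The promoters of Hmgcs1 and Msmo1 are shown because those genes had, by level and by size of change, the leading places among the enzymes that fell. They are the 250 bases before the RefSeq start, in the direction of the gene, from RefSeq on GRCm38.p6, at chr13:119690101-119690350 (plus strand) for Hmgcs1 and chr8:64733579-64733828 (minus strand) for Msmo1. Capitals mark matches on either strand to the sterol regulatory element TCACNCCAC, which SREBP binds, and to the CCAAT box of its partner factor NF-Y, which reads ATTGG on the other strand.
Hmgcs1: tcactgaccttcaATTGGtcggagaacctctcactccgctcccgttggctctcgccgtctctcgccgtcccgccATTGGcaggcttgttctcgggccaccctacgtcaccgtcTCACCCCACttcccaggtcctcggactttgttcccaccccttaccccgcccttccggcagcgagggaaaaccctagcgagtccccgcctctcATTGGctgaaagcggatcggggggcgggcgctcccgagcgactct
Msmo1: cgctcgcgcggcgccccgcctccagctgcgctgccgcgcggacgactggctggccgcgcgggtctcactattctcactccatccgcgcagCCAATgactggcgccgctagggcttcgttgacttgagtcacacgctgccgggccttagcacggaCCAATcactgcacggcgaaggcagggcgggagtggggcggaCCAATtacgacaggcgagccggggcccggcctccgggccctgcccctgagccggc
In Hmgcs1 the sterol element began at -137 from the start, between CCAAT boxes at -237, -176 and -45, and in Msmo1 CCAAT boxes began at -160, -96 and -55. The GENCODE span of Msmo1 reaches chr8:64733792, before the RefSeq start, so the Msmo1 boxes lie inside that annotated gene. No match overlapped another. RefSeq promoters were at hand for 27 of the 34 genes, 34 promoters in all. A CCAAT box stood in 15 of the 19 promoters of synthesis enzymes (78.9%), in 3 of 7 of the sensors (42.9%) and in 3 of 8 of the transport and clearance genes (37.5%), against 33.8% of 32851 promoters of the same length. The exact sterol element stood in 1 of the 34, that of Hmgcs1, against 1.05% of all promoters. These matches describe letters, and Mvk, which was not called, held 5 CCAAT boxes.

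Of the 4 sensors, 1 fell with the allele and 0 rose, with a median averaged change of -0.13. Srebf2, the regulator of the synthesis enzymes, had 171, 205 and 213 CPM in double mutants, against 217, 210 and 231 CPM in cGAS-KO mice, and 192, 189 and 180 CPM in HD mice, against 213, 231 and 237 CPM in WT mice. The HD libraries lay below the WT libraries, while the highest double-mutant library lay above the lowest cGAS-KO library, and the averaged change was -0.22 ± 0.06 (edgeR adjusted p = 0.0308). Insig1, an SREBP2 target that feeds back on the pathway, had 45.6, 54.3 and 64 CPM in double mutants, against 73.7, 76.4 and 66 CPM in cGAS-KO mice, and 60.7, 63.9 and 74.9 CPM in HD mice, against 69.2, 72.6 and 76.9 CPM in WT mice. Its averaged change of -0.27 ± 0.08 fell just short of the threshold (adjusted p = 0.0502), and was -0.32 ± 0.09 (adjusted p = 0.0255) without the 2 libraries that stood apart. Insig2 stood at 0.18 ± 0.07 (adjusted p = 0.133) and Scap at -0.05 ± 0.05.

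Transport and clearance genes moved in both directions: 2 of 11 fell and 2 rose (18.2% each), and the median averaged change was 0.08. Cyp46a1, the neuronal cytochrome P450 that hydroxylates cholesterol so that it can leave the brain, had 93.1, 103 and 110 CPM in double mutants, against 167, 160 and 171 CPM in cGAS-KO mice, and 115, 111 and 112 CPM in HD mice, against 158, 178 and 181 CPM in WT mice. The highest library with the allele held 115 CPM and the lowest without it 158 CPM, so the groups lay well apart. The averaged ratio was 0.635 (log2 change -0.66 ± 0.05, adjusted p = 1.42e-05), and over 18 alternative settings it stayed between -0.70 and -0.62. Cyp46a1 is expressed by neurons, and the medium spiny neuron markers fell by a median of 1.34 in the same libraries, a larger log2 change; their part in the fall of Cyp46a1 was not tested.

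Scarb1, the receptor that takes up cholesteryl ester from high-density particles, had 20.1, 22.7 and 24.5 CPM in double mutants, against 28.1, 26.7 and 26.2 CPM in cGAS-KO mice, and 23.4, 22.4 and 19.5 CPM in HD mice, against 27.5, 29.9 and 30 CPM in WT mice. All 6 libraries with the allele were below the 6 without it, and the averaged change was -0.34 ± 0.07 (adjusted p = 0.00449). Npc1, the lysosomal membrane protein that hands cholesterol back to the cell, had 140, 126 and 124 CPM in double mutants, against 104, 106 and 99.9 CPM in cGAS-KO mice, and 126, 121 and 136 CPM in HD mice, against 106, 98.4 and 103 CPM in WT mice. The lowest library with the allele (121 CPM) stood above the highest without it (106 CPM), and the averaged change was 0.32 ± 0.05 (adjusted p = 0.00119). Abca1, which loads cholesterol onto apolipoproteins and is a target of LXR, had 86.6, 94.2 and 84.5 CPM in double mutants, against 76.3, 77.8 and 60.1 CPM in cGAS-KO mice, and 92.3, 93.5 and 97.5 CPM in HD mice, against 78.2, 71.9 and 63.3 CPM in WT mice. Again the 6 libraries with the allele lay above the 6 without it, a separation seen in 3.38% of all genes tested, and the averaged change was 0.36 ± 0.07 (adjusted p = 0.00609).

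**Figure D3:**
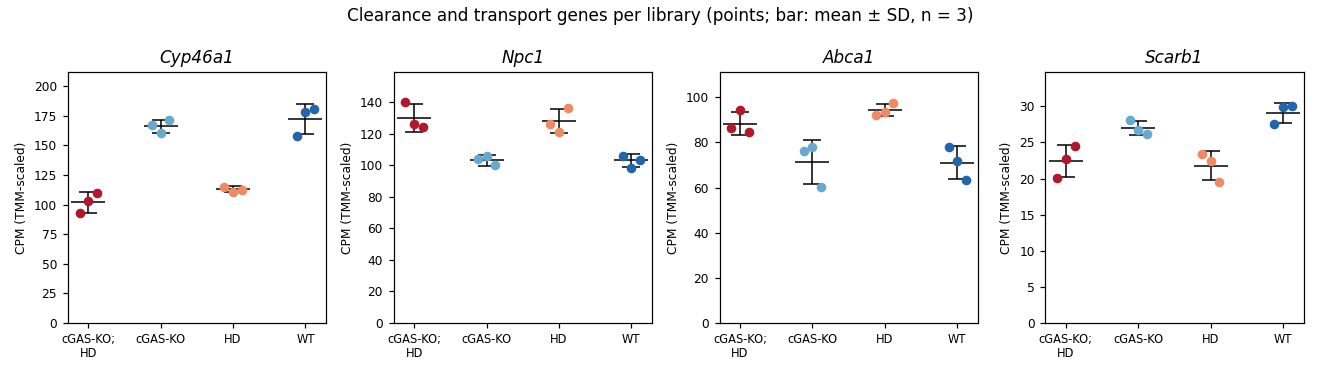
TMM-scaled CPM (y axis, from 0) of the 4 called transport and clearance genes in each library (points) of the 4 groups (x axis), with the group mean ± SD as bars (n = 3). In each panel the libraries of the double mutants and of HD mice lie on the same side of those of cGAS-KO and WT mice, below them for Cyp46a1 and Scarb1 and above them for Npc1 and Abca1.

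The promoters of Cyp46a1 and Abca1 are shown for contrast, as the genes that moved most down and most up in the averaged effect. They are read in the same way, from chr12:108334066-108334315 (plus strand) for Cyp46a1 and chr4:53159896-53160145 (minus strand) for Abca1 on GRCm38.p6. Capitals mark matches on either strand to the CCAAT box and to the E-box CACGTG, a motif bound by basic helix-loop-helix factors.
Cyp46a1: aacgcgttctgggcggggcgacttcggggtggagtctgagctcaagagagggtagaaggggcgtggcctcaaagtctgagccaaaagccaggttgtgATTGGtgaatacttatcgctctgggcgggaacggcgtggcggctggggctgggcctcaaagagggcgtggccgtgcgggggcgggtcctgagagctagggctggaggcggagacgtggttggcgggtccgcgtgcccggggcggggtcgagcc
Abca1: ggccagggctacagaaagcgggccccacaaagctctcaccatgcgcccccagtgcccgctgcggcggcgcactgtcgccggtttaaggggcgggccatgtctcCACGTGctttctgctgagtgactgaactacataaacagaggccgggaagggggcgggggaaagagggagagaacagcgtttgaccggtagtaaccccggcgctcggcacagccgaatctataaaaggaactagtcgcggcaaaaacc
Cyp46a1 held 1 CCAAT box, at -153, and Abca1 held 1 E-box, at -147, a motif found in 6.02% of all promoters and in 6 of the 34 promoters of these genes (17.6%). Neither held the sterol element in this window.

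The other 7 genes of this class were not called. Stard4, a soluble carrier that moves sterol between membranes, had 20.5, 22.7 and 27.7 CPM in double mutants, against 33.9, 31.8 and 27.9 CPM in cGAS-KO mice, and 26.9, 25.9 and 30.9 CPM in HD mice, against 27.5, 28.9 and 32.4 CPM in WT mice. Its averaged change was -0.24 ± 0.08 (adjusted p = 0.0801). Npc2, the soluble lysosomal partner of Npc1, stood at 0.21 ± 0.12 with 63.1 to 93.6 CPM among the WT libraries, the highest of which was replicate 1. Of the LXR receptors, Nr1h3 stood at 0.28 ± 0.13 and Nr1h2 at 0.07 ± 0.06. Abcg1, which passes cholesterol to particles already lipidated, stood at 0.02 ± 0.04, Soat1, which esterifies it, at 0.08 ± 0.06, and the lipoprotein receptor Lrp1 at 0.08 ± 0.06.

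How firmly these calls hold differs between the genes. Cyp46a1, Npc1, Abca1, Scarb1 and Msmo1 were called in 18 of 18 alternative settings. Fdft1 was called in 14 of them, Srebf2, Idi1 and Hmgcs1 in 12 each, and Acat2 and Dhcr7 in 9 each. Leaving out WT replicate 2, WT replicate 3, double-mutant replicate 1 or double-mutant replicate 2 left Msmo1 as the only called enzyme (1 of 19). Without HD replicate 1 or without HD replicate 2, 3 of 19 were called. Cortical marker sums were 515 and 616 CPM in WT replicates 2 and 3, against 71.9 CPM in WT replicate 1. They were 110 and 241 CPM in double-mutant replicates 1 and 2, against 142 CPM in double-mutant replicate 3. The part of these sums in the lost calls was not tested. With cGAS-KO replicate 3 and WT replicate 1 left out, the averaged effect called 15 of the 34 genes, against 21.2% of all genes then tested, adding Insig1 and Stard4 (lower) and Npc2 and Nr1h3 (higher).

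With cGAS present, HD mice differed from WT mice in 4 of the 34 genes, 2 lower and 2 higher, against 4.1% of all genes tested (2.67% lower and 1.43% higher), and 0 of the 19 enzymes were called. Cyp46a1 fell by 0.61 ± 0.08 (113 ± 2.43 CPM in HD mice and 172 ± 12.7 CPM in WT mice, SD, n = 3 each; edgeR adjusted p = 0.00114). Scarb1 fell by 0.42 ± 0.09 (adjusted p = 0.0245), Npc1 rose by 0.32 ± 0.07 (adjusted p = 0.0274) and Abca1 by 0.41 ± 0.10 (adjusted p = 0.0435); for both, the HD libraries lay above the WT libraries, as for 14.6% of all genes. The enzymes had a median change of -0.11, with 12 of 19 negative, and among them the smallest p belonged to Msmo1 (-0.32 ± 0.13, adjusted p = 0.194) and, in the mevalonate arm, to Pmvk (0.37 ± 0.15, adjusted p = 0.214). Srebf2 stood at -0.28 ± 0.09 (187 ± 6.17 CPM in HD mice and 227 ± 12.7 CPM in WT mice; adjusted p = 0.0943). Npc1 and Abca1 lost their calls without any single HD library or without WT replicate 2 or 3, and Scarb1 without HD replicate 2 or 3 or WT replicate 2 or 3, with adjusted p up to 0.201 for Abca1, whose call was also lost when genes had to reach 1 CPM in 3 libraries (adjusted p = 0.0547). With the 2 libraries that stood apart left out, the comparison called 11 of the 34, against 16.5% of all genes. Hmgcs1, Fdft1, Msmo1, Dhcr7, Srebf2, Cyp46a1 and Scarb1 were lower and Pmvk, Npc1, Npc2 and Abca1 higher. Of the WT libraries, that leaves replicates 2 and 3, with cortical marker sums of 515 and 616 CPM. WT replicate 1, left out, had 71.9 CPM, and the HD libraries had 56.7 to 105 CPM. The part of this difference in these calls was not tested.

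Without cGAS, double mutants differed from cGAS-KO mice in 2 of the 34 genes, 1 lower and 1 higher, against 3.96% of all genes tested (2.52% lower and 1.44% higher). Cyp46a1 fell by 0.70 ± 0.08 (102 ± 8.71 CPM in double mutants and 166 ± 5.73 CPM in cGAS-KO mice, SD, n = 3 each; edgeR adjusted p = 0.00037), and Npc1 rose by 0.33 ± 0.07 (130 ± 8.75 CPM in double mutants and 103 ± 3.3 CPM in cGAS-KO mice; adjusted p = 0.0213), with its double-mutant libraries above the cGAS-KO libraries, as for 10.8% of all genes. The median over the 19 enzymes was -0.18, with 15 of 19 negative, and 0 were called; the smallest p belonged to Idi1 (-0.34 ± 0.09, adjusted p = 0.0644) and, after squalene, to Msmo1 (-0.43 ± 0.13, adjusted p = 0.0846). Of the sensors Insig1 stood at -0.40 ± 0.12 (adjusted p = 0.0807) and Srebf2 at -0.16 ± 0.09 (adjusted p = 0.365). Abca1 (0.31 ± 0.10, adjusted p = 0.122), Scarb1 (-0.27 ± 0.09, adjusted p = 0.14) and Stard4 (-0.40 ± 0.12, adjusted p = 0.0889) were not called. The call of Npc1 was lost without cGAS-KO replicate 1 or double-mutant replicate 1 or 2 (adjusted p up to 0.105), and when the compared groups were fitted alone (adjusted p = 0.0922). With the same 2 libraries left out, the comparison called 4, adding Insig1 (-0.47 ± 0.13) and Stard4 (-0.48 ± 0.12), both lower, against 8.31% of all genes.

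The comparison of HD with WT mice and that of double mutants with cGAS-KO mice share no library, so their directions can be set side by side. Of the 19 enzymes, 12 were lower in both (63.2%), 4 higher in both and 3 opposite, and of all genes tested 34.2% were lower in both. Of the 11 transport and clearance genes, 3 were lower in both (Cyp46a1, Scarb1 and Stard4), 8 higher in both and 0 opposite, and 70.9% of all genes kept their direction. The knock-in effect was not shown to differ with cGAS in any of the 34 genes: the interaction called 0 of them and 0.00469% of all genes (1 gene, edgeR), and 0 of the 34 had an unadjusted p under 0.05, against 2.84% of all genes. For Cyp46a1 the difference of the effects was -0.09 ± 0.11, with a 95% interval from -0.34 to 0.16. The smallest p was that of Stard4 (-0.32 ± 0.17, interval -0.71 to 0.07), and for Srebf2 the difference was 0.12 ± 0.12 (interval -0.16 to 0.40). Over the 19 enzymes 18 differences were negative, with a median of -0.09, beside 50.9% negative among all genes tested. The cGAS-KO libraries, with the replicate that stood apart among them, enter each of these values. Without that replicate and WT replicate 1, the order of the 2 knock-in effects turned for some enzymes and held for others. Msmo1 then changed by -0.24 in double mutants against cGAS-KO mice and by -0.38 in HD against WT mice. For Idi1 the same values were -0.29 and -0.23.

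The second question is what loss of cGAS did to the same genes. Without the knock-in allele, cGAS-KO mice differed from WT mice in 0 of the 34 genes, and 0% of all genes were called by edgeR; at an unadjusted p under 0.05 there were 0 of the 34 and 4.28% of all genes, and DESeq2 called 6 genes and 0 of the 34. Cyp46a1 had 166 ± 5.73 CPM in cGAS-KO mice and 172 ± 12.7 CPM in WT mice (log2 change -0.05 ± 0.08), and Srebf2 219 ± 10.7 CPM in cGAS-KO mice and 227 ± 12.7 CPM in WT mice (-0.05 ± 0.09, SD, n = 3 each). The 19 enzymes had a median change of 0.08, with 13 of 19 positive. The smallest p in each class belonged to Idi1 (0.19 ± 0.09), Sc5d (0.13 ± 0.08), Scap (-0.10 ± 0.07) and Nr1h2 (-0.16 ± 0.09), each with an edgeR adjusted p of 0.919.

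With the knock-in allele, double mutants differed from HD mice in 0 of the 34 genes, against 0.00469% of all genes tested. Cyp46a1 had 102 ± 8.71 CPM in double mutants and 113 ± 2.43 CPM in HD mice (-0.14 ± 0.08, edgeR adjusted p = 0.757). The 3 double-mutant libraries, at 93.1 to 110 CPM, lay just below the 3 HD libraries, at 111 to 115 CPM, as they did for 8.33% of all genes, while 8.76% lay above. Srebf2 had 196 ± 22.5 CPM in double mutants and 187 ± 6.17 CPM in HD mice (0.07 ± 0.09). At an unadjusted p under 0.05 there were 2 of the 34, Insig1 (-0.28 ± 0.12) and Pmvk (-0.34 ± 0.15), both with an adjusted p of 0.757, and 5.78% of all genes. The median over the 19 enzymes was -0.03. Averaged over the knock-in genotypes, loss of cGAS called 0 of the 34 and 0% of all genes by edgeR, while 2 of the 34, Ggps1 (0.13 ± 0.06) and Nr1h2 (-0.14 ± 0.06), and 8.63% of all genes had an unadjusted p under 0.05. DESeq2 called 10 genes in that comparison and 0 of the 34. The averaged change was -0.10 ± 0.05 for Cyp46a1 and 0.01 ± 0.06 for Srebf2.

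Synthesis was then set against transport and clearance in each library, as the mean log2 CPM of the 19 enzymes minus that of the 11 genes, with no test, since the genes were chosen. The difference was -1.02 ± 0.02 in double mutants and -0.85 ± 0.14 in cGAS-KO mice, and -1.02 ± 0.06 in HD mice and -0.92 ± 0.10 in WT mice (SD, n = 3 each). It was lower by 0.17 in double mutants than in cGAS-KO mice and by 0.10 in HD than in WT mice, and the pooled SDs were 0.10 and 0.08. The synthesis score was 4.64, 4.73 and 4.83 in double mutants, against 4.87, 4.86 and 4.99 in cGAS-KO mice, and 4.73, 4.78 and 4.85 in HD mice, against 4.81, 4.87 and 4.90 in WT mice. The double-mutant and cGAS-KO libraries did not overlap, whereas the highest HD library lay above the lowest WT library. The transport score, 5.68 to 5.83 in double mutants, against 5.67 to 5.81 in cGAS-KO mice, and 5.80 to 5.82 in HD mice, against 5.74 to 5.84 in WT mice, overlapped in both pairs. Without cGAS-KO replicate 3 the difference between double mutants and cGAS-KO mice was -0.09, and that between HD and WT mice was -0.16 without WT replicate 1. With the median of each class in place of its mean, the differences were -0.54 between double mutants and cGAS-KO mice and -0.27 between HD and WT mice. A class median reads only the middle gene of the class in each library. In cGAS-KO replicate 3 the middle genes were Acat2 (38.8 CPM) and Npc2 (49.6 CPM). In cGAS-KO replicates 1 and 2 they were Dhcr7 (29.3 CPM in each) and Npc2 (70.6 and 71.8 CPM). With class means, double mutants and HD mice differed by -0.00.

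**Figure D4:**
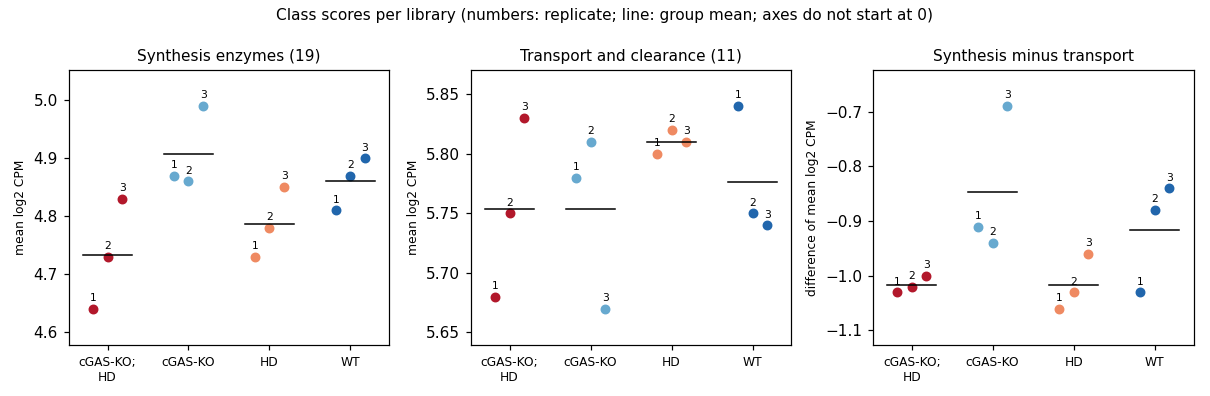
Mean log2 CPM of the 19 synthesis enzymes (left), of the 11 transport and clearance genes (middle) and their difference (right) for each library (points, numbered by replicate) in the 4 groups (x axis), with the group mean as a line; the y axes do not start at 0. The replicate 3 library of cGAS-KO mice is the highest in the left and right panels (4.99 and -0.69) and the lowest in the middle one (5.67).

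Other genes of the pathway were counted from a list of 79, of which 77 were tested. With the knock-in effect averaged, 12 of the 77 rose and 8 fell (15.6% and 10.4%, against 5.59% and 7.63% of all genes tested). In the efflux and intracellular transfer list 6 of 22 rose and 0 fell. Abca8a, a lipid transporter, rose by 0.82 ± 0.08 (56.6 ± 2.37 CPM in double mutants and 34.4 ± 4.06 CPM in cGAS-KO mice, and 62.6 ± 1.66 CPM in HD mice and 32.9 ± 5.01 CPM in WT mice, SD, n = 3 each; adjusted p = 2.98e-05). Abca7, which moves phospholipid out of cells, rose by 0.56 ± 0.11, Abca2, a lysosomal transporter of oligodendrocytes and neurons, by 0.29 ± 0.06, and Scarb2, a lysosomal membrane protein, by 0.23 ± 0.05.

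Of the 12 oxysterol enzymes and LXR partners, 3 rose and 2 fell. Rxrg, a retinoid X receptor that pairs with LXR and is rich in the striatum, fell by 1.11 ± 0.17 (34.2 ± 4.43 CPM in double mutants and 70.1 ± 8.42 CPM in cGAS-KO mice, and 28.5 ± 10 CPM in HD mice and 64.6 ± 14.1 CPM in WT mice; adjusted p = 0.00148). The oxysterol enzymes Cyp27a1 (0.59 ± 0.15) and Cyp39a1 (0.51 ± 0.13) rose, and Cyp11a1, which cleaves the side chain of cholesterol, fell by 0.77 ± 0.21 (0.667 CPM with the allele and 1.14 CPM without it). Among 15 genes of lipoprotein uptake and particles, 1 rose and 2 fell: Lpl, lipoprotein lipase, fell by 0.71 ± 0.12, Sort1, a sorting receptor, by 0.41 ± 0.08, and the lipid carrier Apod rose by 0.48 ± 0.11. In the list of sterol sensing and degradation 3 of 15 fell and 0 rose; among them Mbtps1, the protease that makes the first cleavage of SREBP in the Golgi, fell by 0.26 ± 0.05 (96.6 ± 0.834 CPM in double mutants and 117 ± 9.37 CPM in cGAS-KO mice, and 101 ± 2.47 CPM in HD mice and 119 ± 3.97 CPM in WT mice; adjusted p = 0.0038) and Erlin1, an endoplasmic reticulum protein that restrains SREBP, by 0.35 ± 0.09. Of the 13 tested genes of synthesis and isoprenoid use, 2 rose and 1 fell, the risers being the prenyltransferase subunits Fnta (0.23 ± 0.06) and Pggt1b (0.16 ± 0.04).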

How the data were processed

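Striatal poly(A) RNA of 3 mice per group, each mouse a replicate, went through a strand-marking library kit, per the labels' protocols, so p-values measure the spread between mice. Each deposited file lists unnormalised read counts by Ensembl gene. How the authors aligned and counted, and on which build, is not given here. Symbols came from GENCODE M21 (GRCm38) for 55227 of 55487 genes (99.5%), and promoter sequences from RefSeq on GRCm38.p6. Genes were filtered with filterByExpr (minimum count 10, minimum total 15), scaled by TMM and fitted in edgeR by robust quasi-likelihood, 1 mean per group over 12 libraries (8 residual degrees of freedom, common dispersion 0.0326), and p-values were adjusted by Benjamini-Hochberg over 21309 genes. No covariate was used, as none is labelled. TPM used the summed length of all annotated exons of a gene, and class scores used log2 CPM with a prior count of 2. The 7 comparisons were HD against WT, double mutants against cGAS-KO, cGAS-KO against WT, double mutants against HD, the interaction, and both effects averaged.

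The genes, their classes, the pathway lists and the cell type markers were chosen with earlier results of these data known, so no test over a list was made and lists are given by counts and medians. Named with full statistics were Cyp46a1 and Srebf2 in every comparison, each of the 34 called in any comparison, and in a class without a call the gene with the smallest p. Up to 4 called genes by p were taken from each pathway list, and some genes are not reported here. Insig1 and Stard4 were also given by library after their values were seen. Errors are SE for log2 changes and SD for CPM, TPM and scores. The settings varied were scaling by DESeq2 size factors, leaving out the low-count filter, at least 1 CPM in 3 libraries, DESeq2's Wald test, a replicate block, the compared groups alone, an adjusted p under 0.10, each library left out in turn, and WT replicate 1 and cGAS-KO replicate 3 left out together. The scripts were tested on simulated data. The software was edgeR 4.0.16 and DESeq2 1.42.0, with limma 3.58.1, under R 4.3.3.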

Additional observations from a re-analysis of the deposited data

How the results depend on the processing

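DESeq2 size factors moved the median change of all genes by at most 0.01. Of the 34 genes, the count called in HD against WT (4) was 11 without WT replicate 1 and cGAS-KO replicate 3, 8 with the compared groups alone, and 1 to 5 with each library left out. For double mutants against cGAS-KO (2) it was 7 with DESeq2's Wald test, 7 at an adjusted p under 0.10, 4 without those libraries, 1 with the compared groups alone and 1 to 4 with each library left out. For the averaged knock-in effect (11) the leave-one-out range was 5 to 13. Over all genes, leave-one-out counts were 247 to 1532 for HD against WT (873), 321 to 1089 for double mutants against cGAS-KO (843) and 1784 to 3596 for the averaged effect (2816); with 11 libraries fewer samples enter a fit. At an adjusted p under 0.10 the first 2 comparisons called 1543 and 1469, and the second called 460 with the compared groups alone. DESeq2 called 1801 and 1662 genes in the first 2 comparisons, 7 for double mutants against HD and 3 for the interaction, and leaving out the 2 libraries gave 3589 and 1805 there and 4595 for the averaged effect, with 38 for cGAS-KO against WT and 105 for the interaction. In the 4 comparisons of cGAS loss and the interaction, 0 of the 34 were called under every alternative run.

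With medians in place of means over each class, the synthesis minus transport difference was -0.27 for HD minus WT, -0.54 for double mutants minus cGAS-KO, 0.22 for cGAS-KO minus WT and -0.04 for double mutants minus HD; without the 2 libraries it was -0.07 for cGAS-KO minus WT, where it was 0.07 with them. The averaged cGAS change of Srebf2, 0.01, was -0.03 without the 2 libraries and -0.02 to 0.06 with each library left out, with edgeR adjusted p of 0.794 or more. The class medians rest on the middle gene of each class in a library, and the cause of the other shifts was not tested. Replicate numbers did not pair the libraries: deviations of same-numbered libraries correlated between -0.23 and 0.20. With the replicate block HD against WT called 2 of the 34 genes and 507 of all genes, and the averaged call of Dhcr7 was lost (adjusted p = 0.0655).

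The smallest averaged change called among the 34 was that of Acat2 (-0.20), and genes that were not called are not shown to be unaffected.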
